A study of Mus musculus with 4 samples.

Results

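Lung endothelium carrying the Foxo1 conditional knockout was set against wild-type lung endothelium, both taken on day 7 after pneumonectomy, the surgical removal of lung tissue (PNX). Single-cell RNA libraries of mouse lung were used, and the series held 4 of them: wild-type mice after a sham operation (sham), wild-type mice after PNX (WT PNX), and 2 conditional knockouts after PNX, M3cKO (M3cKO PNX) and Foxo1cKO (Foxo1cKO PNX). Lungs of every group were digested with type 1 collagenase, depleted of CD45-positive cells (CD45 marks blood leukocytes) and then selected on beads for CD31, a surface protein of endothelium. The sources used here do not give what gene M3 stands for, which promoter drove the deletions, the age of the mice or whether animals were pooled. Barcodes passed as cells at 500 genes or more and at most 10% of their UMIs (unique molecular identifiers, counted molecules) from mitochondrial genes. A kept cell was called endothelial when it held at least 2 UMIs summed over Pecam1, Cdh5, Cldn5, Egfl7, Ramp2 and Tie1 and 0 UMIs of Ptprc, Epcam, Col1a1 and Col1a2. This left 3887 endothelial cells in WT PNX and 3811 in Foxo1cKO PNX, which is 7698 of the 14854 endothelial cells, 23723 kept cells and 34683 barcodes of the series.

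FOXO1 is a forkhead transcription factor that insulin and growth factor signals hold out of the nucleus: the kinase AKT phosphorylates it, and it is then kept in the cytoplasm. In endothelium it is known as a brake on growth and metabolism that favours quiescence, in part by opposing MYC, and as an activator of genes such as Angpt2, Cdkn1b, Klf2 and Txnip. Mice without endothelial Foxo1 are known to form disordered vessels.

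Each group was 1 library, so no test could be made and the spread between animals is unknown. Levels are UMIs per 1000000 summed UMIs of the endothelial cells of a library (CPM), and all 95% intervals cover counting error only. The endothelial sums were 13691550 UMIs in WT PNX and 12346381 in Foxo1cKO PNX, with medians of 2640 and 2474 UMIs per cell and of 6.54% and 6.47% mitochondrial UMIs. Pecam1 and Cdh5 (VE-cadherin), which the gate used, were at 2856 and 2127 CPM in WT PNX and at 3076 and 2445 in Foxo1cKO PNX. Among endothelial genes that the gate did not use, the VEGF receptor gene Kdr was at 1228 and 1394 CPM and the TIE2 gene Tek at 704 and 670. Endothelial cells were 60.8% of the kept cells in WT PNX and 59.0% in Foxo1cKO PNX. The sham and M3cKO PNX libraries differed from both in sex transcripts: Xist stood at 132 CPM in WT PNX and at 154 in Foxo1cKO PNX, and at 0 in sham and M3cKO PNX. Y-linked Ddx3y was at 84.2, 59.7, 97.0 and 40.7 CPM in the 4 libraries. Here and wherever 4 values are listed, they go from sham to WT PNX, then M3cKO PNX, then Foxo1cKO PNX. Both compared libraries thus held cells of both sexes, and so of more than 1 animal. Over all their barcodes, WT PNX and Foxo1cKO PNX shared 111. Transcripts of other cells were present at unequal levels: 12 alveolar type 2 markers summed to 872 CPM in WT PNX against 302 in Foxo1cKO PNX (8 of 9 measured ones at least 1.5-fold lower), and 9 erythroid markers to 96.3 and 181 (4 of 5 higher). Levels in bulk sums cannot tell fewer cells of a type from less RNA per cell.

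Foxo1, the targeted gene (chr3:52268336-52353221, plus strand, mm10/GRCm38), was at 196 CPM in sham, at 208 (200.2 to 216) in WT PNX, at 185 in M3cKO PNX and at 70.1 (65.5 to 74.9) in Foxo1cKO PNX. The library labelled Foxo1cKO PNX was thus the only 1 of the 4 with a low level, and the other 3 lay within a narrow band. Foxo1 was 2.97-fold lower than in WT PNX (2.75 to 3.2), a log2 ratio of −1.50 with 5 CPM added to both levels. At least 1 Foxo1 UMI was found in 39.7% of WT PNX and 12.7% of Foxo1cKO PNX endothelial cells. After every cell was thinned to 2000 UMIs, with 1147 and 1275 shallower cells left out, the shares were 29.0% (27.3 to 30.7) and 9.62% (8.50 to 10.8). Among the cells that held any Foxo1 UMI, 41.9% had 2 or more in WT PNX and 39.8% in Foxo1cKO PNX. Over all endothelial cells together, the share of positive cells thus differed more than the share of these with 2 or more UMIs. Reads are counted over the whole gene and may come from outside the deleted part, so intact alleles cannot be counted from the level that remained.

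Cells that the gate set aside for an immune gene gave a comparison within the same libraries, and lymphocytes express Foxo1 themselves. In these Ptprc-positive cells Foxo1 stood at 344 CPM in WT PNX and at 317 in Foxo1cKO PNX (1.08-fold lower, 0.952 to 1.23). A Foxo1 UMI was held by 43.9% and 42.9% of them, at median depths of 1961 and 2123 UMIs. That 42.9% lay above the 12.7% of endothelial cells in the same Foxo1cKO PNX library. Clusters named for other cell types, whose cells had passed the endothelial gate, gave unlike folds from few cells. In the B cell cluster the level in WT PNX was 0.895 times that in Foxo1cKO PNX (0.582 to 1.38). The T and NK cell cluster was 3.24-fold lower (1.72 to 6.46) and the alveolar type 1 cluster 3.90-fold (1.81 to 9.61). The platelet and megakaryocyte cluster was 13.1-fold lower (4.31 to 65.0), with 3 Foxo1 UMIs in Foxo1cKO PNX. The level Foxo1 of the Ptprc-positive cells was thus not shared by all these clusters. Each of their cells held at least 2 UMIs of the gate's endothelial genes and 0 of Ptprc, and the part of endothelial RNA in them was not tested. Free RNA was not removed from either population, and its part in the remaining endothelial level was not tested.

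The size of the Foxo1 difference varied between endothelial classes. Classes were clusters named by their markers, and cells with the general capillary markers were called general capillary-like. Their Foxo1 level was 195 CPM in WT PNX but 44.5 in Foxo1cKO PNX, 4.39-fold lower (3.65 to 5.32). Aerocyte-like cells, the Car4-high cells that cover the gas exchange surface, held 77.3 against 13.7 CPM (5.63-fold lower, 3.96 to 8.19). Venous-like cells held 404 against 199 CPM (2.03-fold lower, 1.78 to 2.31), and the few interferon-state cells, 12 and 22, held 209 against 105 (1.99-fold lower, 0.552 to 6.90). Arterial-like cells stood near them at 330.0 against 139 CPM (2.37-fold lower, 1.86 to 3.03), as did proliferating-like cells at 154 against 66.5 (2.31-fold lower, 1.72 to 3.16). Lymphatic-like cells were few, 71 and 70, and held 191 against 13.4 CPM (14.3-fold lower, 4.65 to 71.1). The intervals of both capillary folds did not overlap those of the venous-like, arterial-like and proliferating-like folds. Venous-like cells supplied 28.3% of all endothelial Foxo1 UMIs in WT PNX and 38.3% in Foxo1cKO PNX. Among aerocyte-like cells with any Foxo1 UMI, 24.8% had 2 or more in WT PNX and 8.57% in Foxo1cKO PNX. These shares were 30.2% and 22.6% in general capillary-like and 50.8% and 36.4% in proliferating-like cells. They were 62.7% and 59.1% in venous-like and 54.5% and 55.8% in arterial-like cells. The intervals of these shares overlapped in each of these classes.

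The Foxo1 difference also varied with the sex transcripts of the cells. Cells with an Xist UMI and no Y-linked UMI are called female-type here, and those with a Y-linked UMI but without Xist are called male-type. There were 938 female-type and 798 male-type cells in WT PNX, and 932 and 574 in Foxo1cKO PNX. Cells of the 2 types come from different animals, so a difference between sexes cannot be told apart from one between animals. In female-type cells Foxo1 stood at 218 CPM in WT PNX and at 37.0 in Foxo1cKO PNX, 5.89-fold lower (4.90 to 7.13). In male-type cells it was at 212 and 127 CPM, 1.67-fold lower (1.47 to 1.91). The same order stood within classes, with folds of 5.59 in female-type and 2.62 in male-type general capillary-like cells, 8.34 and 3.86 in aerocyte-like cells, and 4.10 and 1.59 in venous-like cells. Cells in which neither kind of transcript was seen lay between, at 2.97-fold. The male-type cells of the Foxo1cKO PNX library therefore kept more Foxo1 transcript than its female-type cells, and they still lay below male-type cells of sham (180.5 CPM) and M3cKO PNX (191). Typing needs a captured sex transcript and so favours deep cells, with medians of 2987 UMIs in female-type and 3400.5 in male-type cells of Foxo1cKO PNX. In WT PNX, where these medians were 2683 and 4141, the Foxo1 levels of both were close to each other.

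**Figure D1:**
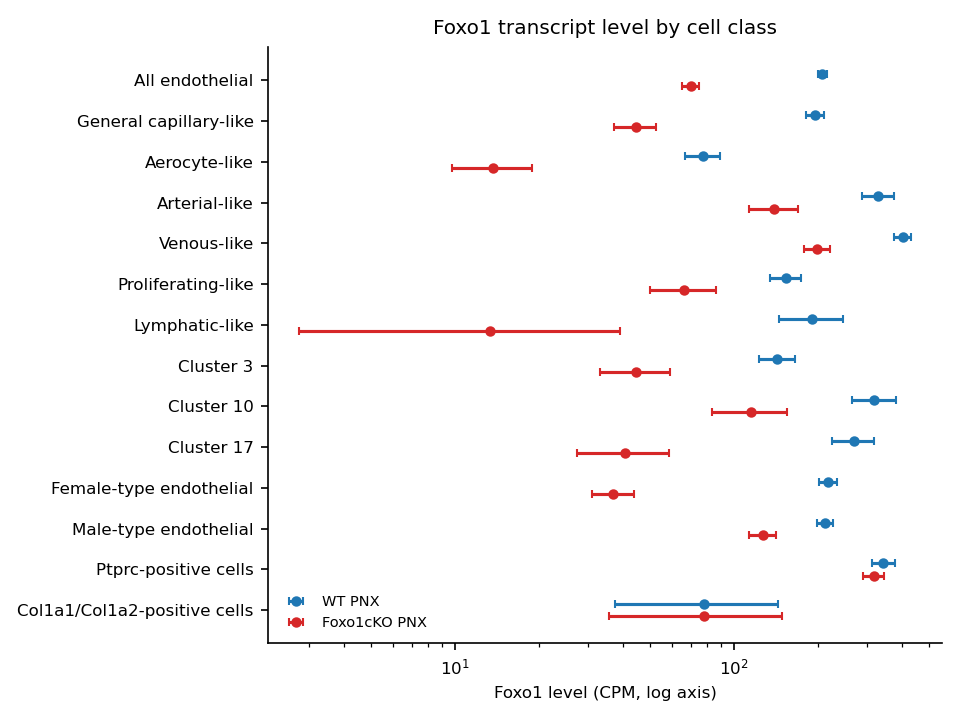
Foxo1 levels in CPM (UMIs per 1000000) on a log axis, by endothelial class (numbered clusters are unnamed) and by sex transcripts, with bars of exact 95% Poisson intervals that cover counting error only; each point is 1 library. Foxo1cKO PNX lay below WT PNX in every endothelial row shown, with the smallest gap in male-type cells (212 against 127 CPM). Cells with Ptprc UMIs and without UMIs of the gate's endothelial genes stood at 344 and 317 CPM.

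The other FOXO genes did not stand lower. Foxo3 was at 37.5 CPM in sham, at 25.6 in WT PNX, at 46.4 in M3cKO PNX and at 32.8 in Foxo1cKO PNX, 1.28-fold higher than in WT PNX (1.11 to 1.48) and inside the range of the other libraries. Foxo4 was at 19.1, 14.5, 11.9 and 17.9 CPM in the same order, and Foxo6 at no more than 2.16 CPM in any library.

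Known FOXO target genes as a group were close to level. A gene is called measured where one of the compared libraries reached 10 CPM. Of 32 target genes measured 0 were at least 1.5-fold higher and 1 at least 1.5-fold lower in Foxo1cKO PNX. Over all 9052 measured genes 0.608% were higher and 0.707% lower by the same rule. The median log2 ratio of the targets was −0.08, against −0.01 over all measured genes. The gene past the fold was Angpt2, the antagonistic TIE2 ligand that destabilises vessels, at 25.6 CPM in sham, at 18.1 in WT PNX, at 14.0 in M3cKO PNX and at 7.94 in Foxo1cKO PNX (log2 ratio −0.84). Its level in Foxo1cKO PNX was the lowest of the 4, and it was lower than in WT PNX in female-type and in male-type cells (log2 ratios −1.13 and −0.77). Lymphatic-like cells held 35.5% of its 248 UMIs in WT PNX, and the unnamed cluster 17 held 35.7% of its 98 in Foxo1cKO PNX.

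The remaining targets stood within 1.5-fold of WT PNX. Ddit4, an inhibitor of mTORC1, was at 65.3, 51.7, 72.7 and 35.8 CPM in the 4 libraries (log2 ratio −0.48). Txnip, which restrains glucose uptake, was at 1021, 391, 835 and 321 CPM (−0.28). Klf2, the shear-responsive factor of quiescent endothelium, was at 2743, 2108, 1718 and 1849 CPM (−0.19). All 3 were lowest or second lowest in Foxo1cKO PNX, by small margins for Klf2 and Txnip. Cdkn1b, the p27 inhibitor of cell division, was at 137 CPM in WT PNX and at 130 in Foxo1cKO PNX. The largest ratio upward was that of Ccng2, an unconventional cyclin that FOXO factors induce, at 31.9, 27.7, 23.9 and 40.3 CPM (0.47). In female-type cells the list median was −0.19 with 0 of 32 higher and 2 lower, against 2.05% and 2.88% of all genes there. Over the members measured in all endothelial cells it was −0.02 in male-type and −0.09 in aerocyte-like cells.

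The PI3K and AKT pathway that controls FOXO1 showed no member past 1.5-fold other than Foxo1 itself, of 31 measured. Akt1 was at 301 CPM in WT PNX and at 298 in Foxo1cKO PNX, and Pik3r1, the regulatory p85 subunit, at 106 and 90.2. Of 24 MYC and ribosome biogenesis genes 0 passed 1.5-fold in either direction (median −0.06), and the G1 cyclin and CDK inhibitor list had 0 of 22 (median −0.08).

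Across the transcriptome few genes stood apart. Of 3883 genes at 50 CPM or more in the higher library 10 were at least 2-fold higher in Foxo1cKO PNX (0.258%) and 8 at least 2-fold lower (0.206%). Of these 18 genes 8 were in the same direction in female-type, male-type, general capillary-like and aerocyte-like cells, were not over 5 times as high in another cell type, and did not draw over 20% of their UMIs from 1 cell. They were Sox11, Ifi208, Mndal and Isg15 among the higher genes and Ifi204, Ackr1, Foxo1 and Gm8797 among the lower ones. Gm8797 is a numbered gene model, a kind left out of the naming rule, and stood at 262 CPM in WT PNX and at 72.9 in Foxo1cKO PNX. The rest included transcripts of cells that were carried along. Sftpc, a surfactant protein of alveolar type 2 cells, stood at 523 CPM in WT PNX and at 146 in Foxo1cKO PNX, and 84.7% of its UMIs lay in the alveolar type 2 cluster. Prss34 and Mcpt8, basophil proteases, were at 78.4 and 54.3 CPM in Foxo1cKO PNX, with 99.1% and 98.5% of their UMIs in 1 cluster, which held 20 cells of that library. Gdpd3, a lysophospholipase D, was at 10.2, 37.4, 11.4 and 132 CPM in the 4 libraries, and the difference lay in female-type cells (14.7 and 167 CPM) and not in male-type cells (60.02 and 59.7). Col3a1, a fibrillar collagen, was at 8.96, 30.7, 3.23 and 78.6 CPM, with 91.1% of its UMIs in venous-like cells, and here the difference lay in male-type cells (23.5 and 171 CPM) and not in female-type cells (52.6 and 51.1). Scgb1a1, a club cell secretory protein, was at 288 and 783 CPM with 93.8% of its UMIs in 1 cell, and Chil3, a macrophage chitinase-like protein, at 109 and 7.37 with 67.3% of its WT PNX UMIs in 1 cell.

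Of the 8 genes lower in Foxo1cKO PNX, WT PNX lay outside the range of the other 3 libraries for 8 and Foxo1cKO PNX for 2. For the 10 higher genes WT PNX lay outside the range for 6 and Foxo1cKO PNX for 8. Lying outside the range needs no margin, and a gene called lower was already chosen for a higher level in WT PNX than in Foxo1cKO PNX. With a 2-fold margin WT PNX lay above all 3 others for 5 of the 8 lower genes, Chil3 and Sftpc among them. Foxo1cKO PNX lay 2-fold below all 3 others for 1 of the 8, Foxo1. The counts changed with the cells taken: with at most 5% mitochondrial UMIs per cell 20 genes were higher and 15 lower, female-type cells alone had 28 lower, and male-type cells alone had 27 higher.

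**Figure D2:**
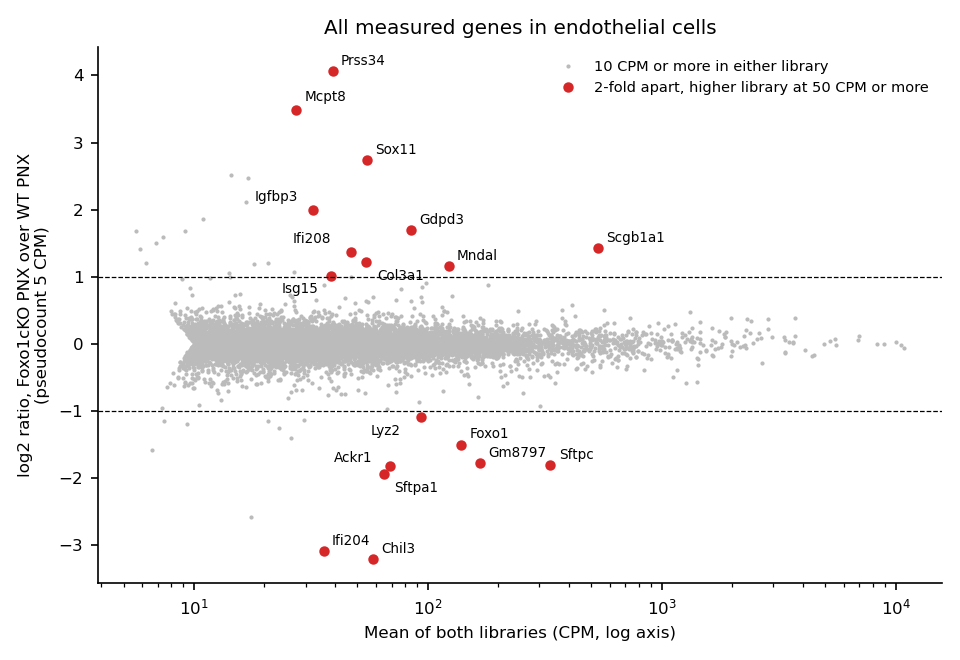
Log2 ratio of Foxo1cKO PNX over WT PNX (5 CPM added) against the mean level in CPM on a log axis; each point is 1 measured gene, and the genes past the 2-fold rule are marked. Most genes lie near 0 (median −0.01), with Sox11 at 2.74 and Ifi204 at −3.09 as the eligible genes farthest from it.

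The interferon-stimulated genes were the list with the most members past the fold in the higher direction. Type I interferons activate a transcription factor complex that binds the interferon-stimulated response element (ISRE), and the induced genes restrict viruses and sense nucleic acids. Of 41 measured members 13 were at least 1.5-fold higher in Foxo1cKO PNX and 1 was lower, where 0.608% and 0.707% of all genes were, and the median log2 ratio was 0.34. This median fell to 0.24 with classes weighted to the WT PNX mix and to 0.24 after thinning to 2000 UMIs. With the mean over cells of each cell's CPM it was 0.23. These lower medians lie under 1.2-fold, the size at which a list median was called. To show what the interferon genes have in common apart from their levels, the 250 bases before the start of transcription are printed for 5 of the higher genes. They are from RefSeq for GRCm38.p6, written 5′ to 3′ on the strand of the gene, with each match to the ISRE pattern (GAAA, 2 bases of any kind, GAAA) on either strand in capitals.
Isg15: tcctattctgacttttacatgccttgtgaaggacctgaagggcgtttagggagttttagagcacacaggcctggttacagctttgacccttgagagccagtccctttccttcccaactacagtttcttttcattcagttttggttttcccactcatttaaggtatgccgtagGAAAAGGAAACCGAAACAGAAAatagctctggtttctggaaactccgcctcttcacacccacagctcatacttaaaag
Ifit1: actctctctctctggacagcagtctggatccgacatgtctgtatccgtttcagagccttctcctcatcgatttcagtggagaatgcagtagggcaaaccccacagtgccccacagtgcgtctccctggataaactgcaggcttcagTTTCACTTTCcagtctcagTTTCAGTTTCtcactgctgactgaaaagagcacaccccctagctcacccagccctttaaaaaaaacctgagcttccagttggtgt
Rsad2: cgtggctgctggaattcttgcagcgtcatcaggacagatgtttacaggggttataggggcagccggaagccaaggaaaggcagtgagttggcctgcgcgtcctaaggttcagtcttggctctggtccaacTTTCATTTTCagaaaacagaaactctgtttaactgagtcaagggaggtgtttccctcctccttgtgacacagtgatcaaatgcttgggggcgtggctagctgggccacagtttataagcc
Ifi208: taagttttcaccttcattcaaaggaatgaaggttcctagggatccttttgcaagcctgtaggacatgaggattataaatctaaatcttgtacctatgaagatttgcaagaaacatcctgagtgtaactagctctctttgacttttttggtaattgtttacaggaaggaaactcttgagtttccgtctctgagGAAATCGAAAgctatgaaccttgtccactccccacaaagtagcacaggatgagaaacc
Mndal: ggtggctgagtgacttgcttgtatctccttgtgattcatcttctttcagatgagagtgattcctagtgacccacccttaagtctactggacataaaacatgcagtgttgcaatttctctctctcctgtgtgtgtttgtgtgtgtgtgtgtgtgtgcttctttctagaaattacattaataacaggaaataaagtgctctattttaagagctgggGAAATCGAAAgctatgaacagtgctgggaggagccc
The windows are chr4:156200819-156201068 (minus strand) for Isg15, chr19:34640639-34640888 (plus) for Ifit1, chr12:26456453-26456702 (minus) for Rsad2, chr1:173673415-173673664 (plus) for Ifi208 and chr1:173880188-173880437 (minus) for Mndal, the latter being 1 of 2 annotated starts. The match farthest from the start began 78 bases before it in Isg15 and 104 in Ifit1. The only match began 120 bases before the start in Rsad2, 58 in Ifi208 and 36 in Mndal.

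All 13 higher interferon genes were found in the promoter table, and 10 of them (76.9%) held a match to the ISRE pattern. Of the 27 measured members under 1.5-fold 20 were found, and 10 of these (50%) held one. Among all 27025 genes of the table the share was 3.46%, and among the 7235 measured here that were found it was 3.28%. The FOXO letters GTAAACA, searched on both strands, occurred in 4 of the 13 higher interferon genes (30.8%), Rsad2, Ifi206, Ifi208 and Ifi213. Among the 20 members under 1.5-fold that were found, 1 held them (5%). Ifi206, Ifi208 and Ifi213 are close copies that lie together, so members are not independent in either motif count. The letters occurred in 2 of the 47 genes at least 1.5-fold lower that were found (4.26%) and in 4 of 28 FOXO target genes found (14.3%), against 3.54% of all genes. One of those FOXO targets is Txnip, whose window at chr3:96557707-96557956 (plus strand) is printed with GTAAACA, on either strand, in capitals.
Txnip: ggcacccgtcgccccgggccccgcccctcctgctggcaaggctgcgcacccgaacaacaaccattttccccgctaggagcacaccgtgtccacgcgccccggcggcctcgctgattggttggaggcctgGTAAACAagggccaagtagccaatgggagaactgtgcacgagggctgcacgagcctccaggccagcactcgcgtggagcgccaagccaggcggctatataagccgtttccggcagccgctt
A match of letters is a description of the window and not evidence of binding.

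Isg15, a ubiquitin-like protein that is attached to other proteins, was at 22.9 CPM in sham, at 24 in WT PNX, at 18.9 in M3cKO PNX and at 53.3 in Foxo1cKO PNX. It was 2.22-fold higher than in WT PNX (1.95 to 2.55; log2 ratio 1.01), and the other 3 libraries lay close together below it. It was higher in general capillary-like (18.9 and 43.2 CPM), aerocyte-like (16.2 and 35.1), venous-like (27.1 and 56.6) and arterial-like cells (37.3 and 61.3). It was at 19.5 and 45.7 CPM in female-type cells and 30.6 and 67.4 in male-type cells. Isg15 thus stood higher in every class named here.

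The IFIT genes, whose proteins bind foreign RNA ends, stood higher as well. Ifit1 was at 70.7, 66.8, 96.7 and 129.7 CPM in the 4 libraries (log2 ratio 0.91). Ifit3 was at 26.2, 24, 34.7 and 48.2 CPM (0.87), and its near copy Ifit3b at 9.24, 10.1, 12.2 and 19.9 (0.73), so reads of these copies may have been shared between them or lost. For all of them Foxo1cKO PNX was the highest library. Rsad2 (viperin), an antiviral enzyme, was at 17, 10.7, 35.7 and 30.9 CPM (1.2), below M3cKO PNX, and 23.6% of its UMIs lay in 1 cell.

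Other antiviral and sensor genes stood higher by smaller amounts. Oasl2, an RNA sensor relative, was at 108, 95, 110 and 159 CPM (0.71), and Ifi44 at 43.4, 41.3, 27.6 and 67.1 (0.64). Irf7, the factor that amplifies interferon production, was at 17.7, 14.3, 14.9 and 24.1 CPM (0.59). Igtp, an interferon-gamma-induced GTPase, was at 187, 65.4, 111 and 105 CPM (0.64), so it was higher than in WT PNX but lower than in sham. Rtp4, an interferon-induced regulator of antiviral signalling that is outside the list and was chosen after its values were seen, was at 117, 126, 107 and 235 CPM, and at 107 and 211 in female-type cells and 133 and 261 in male-type cells. Other members of the list stayed near level: Irf1, an interferon-induced transcription factor, was at 288 CPM in WT PNX and at 271 in Foxo1cKO PNX, and the RNA sensor genes Ifih1 at 58.6 and 59.1 and Ddx58 at 80.7 and 77.7. Foxo1cKO PNX was the highest of the 4 libraries for 20 of the 41 members and sham for 14, while WT PNX was the lowest for 13 and M3cKO PNX for 23.

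The interferon difference was seen in capillary-like and venous-like cells, and its median was larger in male-type than in female-type cells. General capillary-like cells had 12 of 38 measured members higher and 1 lower (median 0.27, with 1.22% and 1.11% of all genes there). Aerocyte-like cells had 10 of 38 higher and 1 lower (0.29, with 1.62% and 1.69%), and venous-like cells 11 of 38 and 1 (0.28, with 3.23% and 2.96%). Arterial-like cells had 6 of 41 higher and 4 lower, near the 9.16% and 8.92% of all genes there. Over the 41 members measured in all endothelial cells, the medians were 0.26 in general capillary-like and 0.23 in aerocyte-like cells. Female-type cells had 10 of 40 higher and 2 lower (median 0.14, with 2.05% and 2.88%), and male-type cells 21 of 43 higher and 1 lower (0.58, with 2.88% and 1.93%). The 2 strata come from different animals and differ in depth, and a relation between their Foxo1 and interferon differences was not tested. Markers of blood cells, which can carry interferon-induced transcripts, summed to 67.7 CPM in WT PNX against 99.0 in Foxo1cKO PNX for T and NK cells. For B cells the sums were 229 and 198, and for monocytes and macrophages 2078 and 2060. The monocyte and macrophage list includes Ace, also on the vasoactive gene list used here, so its sum need not come from blood cells alone. Of its 6 measured members 1 was at least 1.5-fold higher and 2 lower, Lyz2 (129 and 58.2 CPM) and Chil3 (109 and 7.37). The part of blood cells in the result was not tested. The cluster named for the interferon state held 12 cells in WT PNX and 22 in Foxo1cKO PNX.

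**Figure D3:**
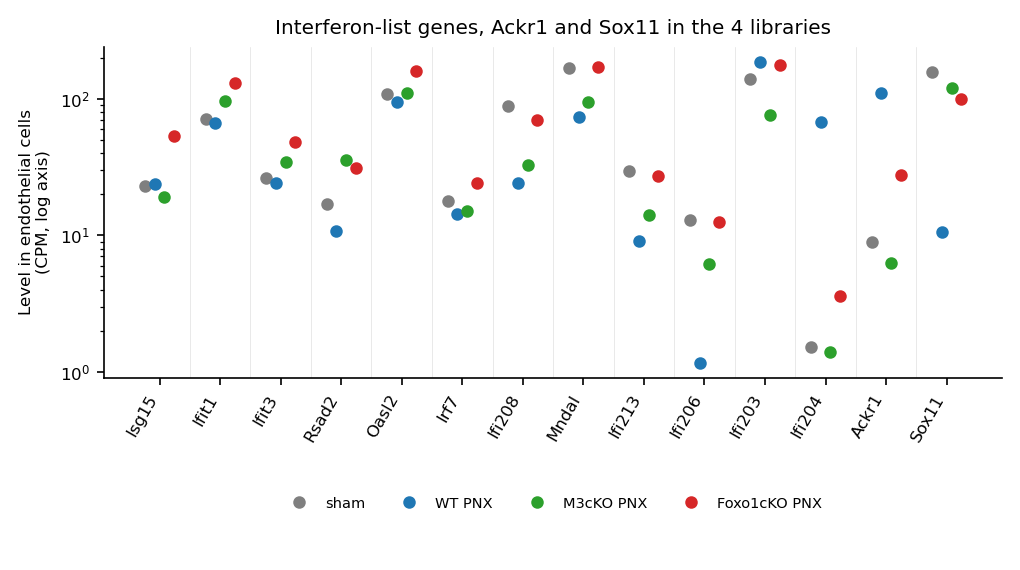
Levels in CPM, on a log axis, of 12 interferon-list genes, Ackr1 and Sox11 in the 4 endothelial libraries; each point is 1 library. Isg15 set Foxo1cKO PNX apart from the other 3 libraries (53.3 CPM), while Sox11, Ifi204 and Ackr1 set WT PNX apart (10.6, 68.1 and 110 CPM).

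The HIN-200 genes, which encode cytosolic and nuclear DNA sensors and lie together on chromosome 1, differed in both directions. Ifi204 (chr1:173747293-173766943, minus strand) was at 1.52 CPM in sham, at 68.1 in WT PNX, at 1.39 in M3cKO PNX and at 3.56 in Foxo1cKO PNX. It was 19.1-fold lower in Foxo1cKO PNX than WT PNX (14.1 to 26.5), and only the WT PNX library held it above a few CPM. The difference stood in female-type cells (48.7 and 3.26 CPM), male-type cells (89.2 and 2.82), general capillary-like cells (64.7 and 0.649) and venous-like cells (128 and 1.81). Lymphatic-like cells went the other way (22.6 and 49.1), and their 11 UMIs were 25% of all Ifi204 UMIs of Foxo1cKO PNX endothelium.

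The neighbouring members stood the other way. Ifi208 (chr1:173673675-173698395, plus strand) was at 89.1, 24, 32.7 and 70.2 CPM in the 4 libraries, 2.92-fold higher than in WT PNX (2.57 to 3.33). Mndal (chr1:173849126-173942491, minus strand) was at 169, 74.1, 95.5 and 171 CPM, 2.31-fold higher (2.15 to 2.5). Ifi213 was at 29.5, 9.06, 14.2 and 27.1 CPM, and Ifi206 at 12.9, 1.17, 6.16 and 12.6. In all 4 of these genes WT PNX was the lowest library and Foxo1cKO PNX was the library nearest to sham. Ifi203 was at 140, 186, 76.6 and 176 CPM, level between WT PNX and Foxo1cKO PNX. HIN-200 members are close copies of each other, so the division of reads among them is uncertain.

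Over the genome 118 of 9031 placed genes passed 1.5-fold (1.31%), and in 424 of 511 windows of 5 Mb none did. Only 2 windows held 4 or more of them. From 170 to 175 Mb of chromosome 1 they were 8 of 36 (22.2%): Ackr1, Ifi206, Ifi213, Ifi208, Ifi204, Mndal, Dusp23 and the model gene Gm7694. From 25 to 30 Mb of chromosome 12 they were 4 of 11 (36.4%): Sox11, Rsad2, Cmpk2 and Trappc12. Windows with 3 lay at 30 to 35 Mb of chromosome 19 (3 of 20, Ifit1, Ifit3 and Ifit3b) and at 80 to 85 Mb of chromosome 11 (3 of 32, the chemokine genes Ccl3, Ccl4 and Ccl8), and 40 to 45 Mb of chromosome 14 had 2 of 3 (Sftpa1 and Sftpd). Around Foxo1 itself 1 of 12 measured genes within 1.5 Mb on either side passed, Foxo1. These regions were chosen after their values were seen, and the cause was not tested.

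Sox11 (chr12:27334264-27342574, minus strand), an embryonic SOX transcription factor, was the farthest above WT PNX of the 4 higher genes named by rule. It was at 158 CPM in sham, at 10.6 in WT PNX, at 121 in M3cKO PNX and at 99.1 in Foxo1cKO PNX, 9.35-fold higher than in WT PNX (7.87 to 11.2). The WT PNX library was the low one, and Foxo1cKO PNX lay below the other 2. General capillary-like cells held most, with 15.7 CPM in WT PNX against 212 in Foxo1cKO PNX, and aerocyte-like cells 4.45 and 57.5, while arterial-like cells held 0 in both. Female-type cells were at 13.2 and 88.9 CPM and male-type cells at 9.80 and 100.04, so the difference was present in both.

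Ackr1 (chr1:173331886-173333750, minus strand), the atypical chemokine receptor that marks venules, was lower in Foxo1cKO PNX. It was at 8.86 CPM in sham, at 110 in WT PNX, at 6.32 in M3cKO PNX and at 27.5 in Foxo1cKO PNX, 4.01-fold lower than in WT PNX (3.56 to 4.52). Its venous-like levels were 446 and 74.0 CPM, and those of the unnamed cluster 17 were 1192 and 297. Cluster 17 held 62.1% of the Ackr1 UMIs of Foxo1cKO PNX, and venous-like cells 58.7% of those of WT PNX. General capillary-like and aerocyte-like cells held at most 3.24 CPM in either library, so the direction there rests on few UMIs. Female-type (97.3 and 23.4 CPM) and male-type cells (196 and 40.3) both held less Ackr1 in Foxo1cKO PNX. Ackr1 lies 415 kb below Ifi204, within the same window of chromosome 1.

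**Figure D4:**
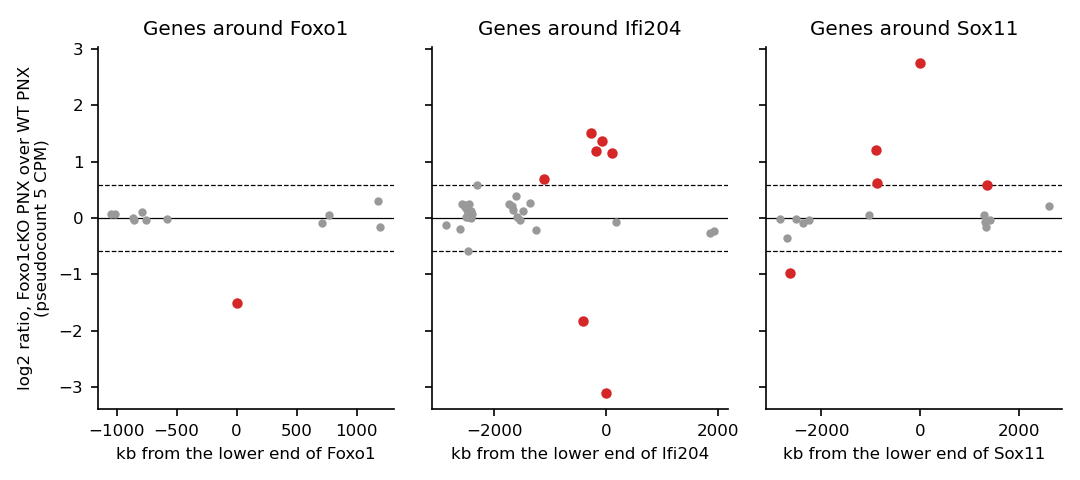
Log2 ratio of Foxo1cKO PNX over WT PNX of the measured genes around Foxo1, Ifi204 and Sox11 against the distance in kb from the lower end of each; each point is 1 gene and dashed lines mark 1.5-fold. Near Foxo1 1 of 12 genes passed, near Ifi204 7 of 34 and near Sox11 5 of 16.

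Over all endothelial cells, cell division genes were lower in Foxo1cKO PNX than WT PNX. Of 41 measured genes of the G2 and M phases 14 lay at least 1.5-fold below WT PNX and 0 above (median log2 ratio −0.52, with 0.707% and 0.608% of all genes), and of 32 S phase genes 5 were lower and 0 higher (median −0.27). The G2 and M phase median was −0.05 with classes weighted to the WT PNX mix, −0.25 without proliferating-like cells and −0.17 in general capillary-like cells. Mki67, the nuclear protein of cycling cells, was at 15.5 CPM in sham, at 256 in WT PNX, at 110 in M3cKO PNX and at 163 in Foxo1cKO PNX. Top2a, a topoisomerase of chromosome segregation, was at 11.4, 209, 79.5 and 118 CPM, and Prc1, which bundles spindle microtubules, at 8.10, 120, 50.5 and 63.5. Rrm2, a ribonucleotide reductase subunit, was at 8.67, 90.1, 36.0 and 43.4 CPM. The order was the same in each, falling from WT PNX to Foxo1cKO PNX, then M3cKO PNX and then sham, and WT PNX was the highest and sham the lowest library in 41 of the 41 G2 and M phase genes.

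This difference was seen in male-type but not in female-type cells. In male-type cells 16 of 42 G2 and M phase genes were lower and 1 higher (median −0.47), and in female-type cells 0 of 39 passed in either direction (median 0.01). The S phase median was −0.34 in male-type and 0.06 in female-type cells over the same members. Cells holding 2 or more UMIs summed over 10 cell cycle genes were 11.8% of WT PNX (10.8 to 12.8) and 7.66% of Foxo1cKO PNX endothelium (6.84 to 8.55), and 11.4% and 7.85% after thinning to 2000 UMIs. In male-type cells these shares were 19.7% (17 to 22.6) and 11.1% (8.69 to 14.0), and 16.4% and 11.3% after thinning. In female-type cells they were 8% and 9.12%, and 8.64% and 8.90% after thinning. The female-type share did not stand lower in Foxo1cKO PNX, and its intervals overlapped. Within proliferating-like cells, a cluster that these genes helped to define, the G2 and M phase median was 0.03, with 1 of 42 members higher and 0 lower where 5.72% and 5.16% of all genes were.

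**Figure D5:**
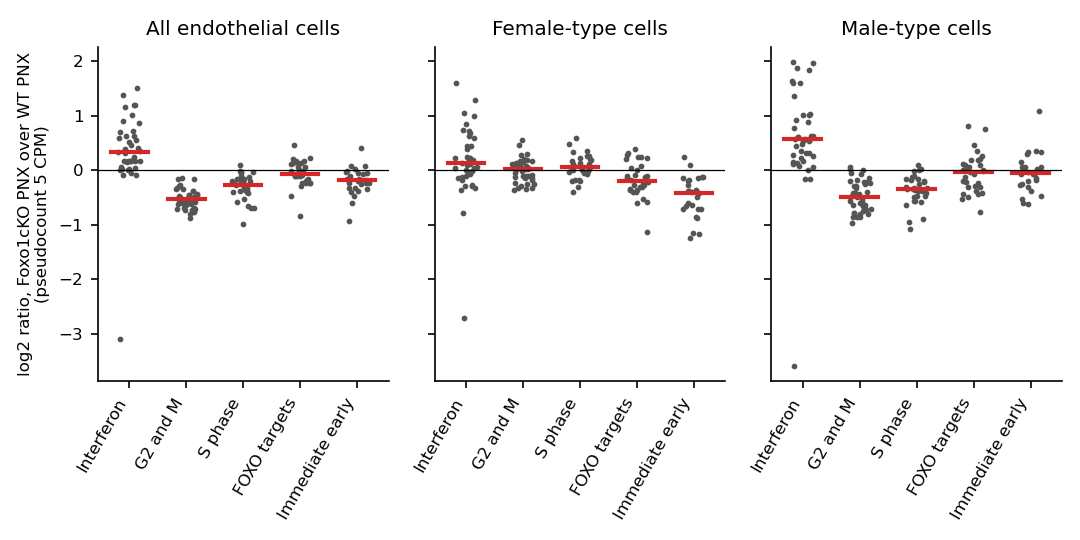
Log2 ratio of Foxo1cKO PNX over WT PNX (5 CPM added) of the members of 5 gene lists in all endothelial, female-type and male-type cells; each point is 1 gene measured over all endothelial cells, and the red bars are list medians. The medians of the G2 and M phase list stood at −0.52, 0.02 and −0.48 and those of the interferon list at 0.34, 0.14 and 0.57.

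Immediate early genes, which cells switch on within minutes of a stimulus or of dissociation, had a median below that of all genes. Of 26 measured 2 lay at least 1.5-fold lower and 0 higher (median −0.18). Fosb, an AP-1 subunit, was at 152, 397, 169 and 207 CPM in the 4 libraries (log2 ratio −0.92), and Dusp2, a MAP kinase phosphatase, at 15.3, 23.3, 19.3 and 13.6. In female-type cells 11 of 26 were lower and 0 higher (median −0.41, with 2.88% and 2.05% of all genes there). Male-type cells had 2 lower and 1 higher (−0.05, with 1.93% and 2.88% of all genes). Heat shock chaperones had 0 of 22 past 1.5-fold (median −0.14), and Hspa8, the constitutive HSC70, was at 2005, 1515, 3085 and 1014 CPM (−0.58).

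The title of the series names Rhoj, a CDC42-like GTPase of endothelium, and pro-fibrotic angiocrine factors. Rhoj was at 314, 264, 322 and 248 CPM in the 4 libraries, with a log2 ratio of −0.09. Of 25 genes of the Rhoj and Cdc42 branch 0 passed 1.5-fold (median −0.07), and Cdc42 was at 788 CPM in WT PNX and at 770 in Foxo1cKO PNX. Of 30 measured pro-fibrotic and angiocrine factors 1 was higher and 2 were lower (median 0.12).

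Within that list Cxcl12, the chemokine of arterial endothelium, was at 1064, 1107, 679 and 1536 CPM (0.47), the highest in Foxo1cKO PNX, and at 6054 and 9717 CPM in arterial-like cells of WT PNX and Foxo1cKO PNX. Ptgs2, a prostaglandin synthase that lay mostly in venous-like cells, was at 71.4, 181, 44.4 and 118 CPM (−0.60). Postn, a matrix protein, was at 8.48, 12.5, 2.62 and 6.4 CPM (−0.62). Igfbp3, an IGF-binding protein of tip cells, stood at 9.93 CPM in WT PNX and at 54.8 in Foxo1cKO PNX, with 83.3% of its Foxo1cKO PNX UMIs in 1 unnamed cluster. Foxo1cKO PNX was the highest library for 16 of the 30 members.

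Sprouting and VEGF genes were mostly level. Esm1 (endocan), a tip cell product, was at 38.8, 33.5, 20.6 and 17 CPM (log2 ratio −0.81), and at 28.7 and 7.47 CPM in general capillary-like cells. Vegfa was at 635, 949, 663 and 726 CPM (−0.38), while Kdr and Tek were close to level. Of 13 VEGF and angiopoietin genes 1 was lower (Angpt2) and 0 higher, and of 15 Notch genes 0 passed.

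Matrix, adhesion and metabolic lists showed few members past the fold. Of 34 extracellular matrix genes 0 passed (median 0.12), and Col4a2, a basement membrane collagen, was at 1262, 1713, 1942 and 2233 CPM (0.38). Of 32 leukocyte adhesion genes 1 was lower, Ackr1 (median −0.05), and Selp (P-selectin) was at 73.9, 296, 124 and 209 CPM (−0.49), with 969 and 520 CPM in venous-like cells. Of 28 junction genes 0 passed (median 0.09), and F11r (JAM-A) was at 332 CPM in WT PNX and at 498 in Foxo1cKO PNX. Of 53 oxidative phosphorylation genes 0 passed (median 0.00), and of 25 glycolysis and hypoxia genes 0 (median −0.09). Of 25 antigen presentation genes 0 passed over all cells (median 0.12), but 4 of 25 were lower and 0 higher in female-type cells (2.88% and 2.05% of all genes there), and 6 of 25 higher and 0 lower in male-type cells (2.88% and 1.93%).

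General capillary-like cells were the largest endothelial class in both libraries. They made up 37.3% of the endothelial cells in WT PNX and 36.2% in Foxo1cKO PNX, venous-like cells 11.3% and 12%, aerocyte-like cells 16.1% and 18.4%, and arterial-like cells 4.4% and 5.48%. One of the general capillary-like clusters was led by the stress genes Atf3, Socs3 and Hspa1a. The shares rest on clusters rebuilt here from the same genes, and 1 library per group gives no spread for them.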

How the data were processed

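Single-cell RNA libraries of 4 groups, 1 per group, were used as the authors deposited them: raw UMI counts per gene and barcode, whole numbers without normalization. Per the labels, the aligner and counter was Cell Ranger 2.1.1 on mm10, while the file headers state software version 3.0.0. The submitters' processing notes also list R 3.4.4. Groups were taken from the sample titles.

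Endothelial counts were summed per library to CPM, which makes deep cells count more. With 1 library per group no test was possible. A gene counted as 2-fold apart with 5 CPM added to both levels and the higher library at 50 CPM or more, and list members were read at 10 CPM and 1.5-fold, as fixed rules of size. Levels carry exact Poisson, shares exact Clopper-Pearson and ratios exact conditional binomial 95% intervals, which cover counting error only. The 33 gene lists and 22 marker lists, the members and the rules were chosen with earlier results of these data known.

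Cells of WT PNX and Foxo1cKO PNX were clustered together (10000 counts per cell, log scale, 2000 variable genes, 40 principal components, 20 neighbours, Leiden resolution 1). To be named, a cluster needed 4 or more markers of a class among its 50 leading genes, and more than of any other class. No other class could have more markers than the named one among the 10 leading genes. Clusters that did not meet the naming rule kept a number. Clusters named for other cell types, whose cells had passed the gate, stayed in the sums. No doublets were removed in the main values. As an alternative, the highest Scrublet scores were removed at 0.8% per 1000 barcodes, 687 in WT PNX and 608 in Foxo1cKO PNX; Scrublet's own threshold marked 225 and 274.

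The genes named by rule were up to 15 with the largest 2-fold ratios in each direction that had the same direction in female-type, male-type, general capillary-like and aerocyte-like cells, plus Foxo1, Foxo3, Foxo4, Foxo6 and Rhoj, and up to 4 members per list at 20 CPM or more. The ranking left out sex-linked, mitochondrial, ribosomal, haemoglobin, immunoglobulin and T cell receptor genes and numbered gene models, as were genes over 5 times as high in a non-endothelial population of at least 30 cells or drawing over 20% of their UMIs from 1 cell. Other genes were named after their values were seen, and some genes that met these rules are not reported here. Promoter windows are from RefSeq, and a missing gene was counted as not found.

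Python 3.11.15 was used with numpy 2.4.6, scipy 1.17.1, pandas 2.3.3, scanpy 1.11.5, anndata 0.12.19, scikit-learn 1.9.0, matplotlib 3.10.9 and igraph 0.11.9. TMM factors came from edgeR 4.0.16 under R 4.3.3. On simulated data of 18156 genes for this comparison, 50 of 50 genes 2.5-fold higher and 50 of 50 lower passed the 2-fold rule. At 1.5-fold 0 of 50 passed in each direction, as did 0 of 3598 unchanged genes. The simulated counts held counting error only, and the changed genes were taken from levels above the 50 CPM floor of the rule. The result therefore does not show how often real libraries differ through animals, cell mix or carried-along transcripts.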

Additional observations from a re-analysis of the deposited data

Results flagged for a closer look

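Genes that stood lower in female-type cells and higher in male-type cells of Foxo1cKO PNX, against the same cells of WT PNX, were singled out. In each, Foxo1cKO PNX lay below WT PNX in female-type cells and above it in male-type cells. The difference between the sexes was not tested, and each group of cells is 1 library.

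Eln, the elastin gene, was at 1080.0 CPM in WT PNX and at 516 in Foxo1cKO PNX female-type cells, and at 771 and 1781 in male-type cells, a log2 ratio 2.26 higher in male-type cells and 0.03 over all. In venous-like cells Eln was at 4403 and 2639 CPM in female-type cells and 2341 and 6494 in male-type cells. In the other 2 classes Eln was lower in Foxo1cKO PNX in both: general capillary-like cells held 271 and 205 CPM where female-type, and 275 and 171 where male-type, and aerocyte-like cells 107 and 65.6, and 101 and 60.3.

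H2-Eb1, an MHC class II beta chain, was at 99.4 and 13.6 CPM in female-type cells and 18.1 and 88.3 in male-type cells, a log2 ratio 4.50 higher in male-type cells. H2-T23, a class Ib molecule (Qa-1), was at 503 and 229.7 CPM in female-type cells and 172 and 624 in male-type cells, 2.94 higher. In general capillary-like cells H2-T23 was at 676 and 277 CPM in female-type cells and 191 and 750 in male-type cells. MHC genes are close copies of each other, so their counts are uncertain. The male-type cells of Foxo1cKO PNX and the female-type cells of WT PNX were the pair with the higher levels in all 3 genes.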

How the results depend on the processing

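No paired analysis was possible because each group was 1 library, and no replicate could be left out. The settings TMM scaling, at least 4 endothelial marker UMIs, classes weighted to the WT PNX mix, doublet scores removed, 1 CPM added in place of 5, without proliferating-like cells, and without clusters named for other cell types (chosen after seeing the data) left the Foxo1 ratio and both counts of 2-fold genes close to those reported. The 10 higher genes became 20 with at most 5% mitochondrial UMIs per cell, 4 in general capillary-like cells, 5 in aerocyte-like cells, 27 in male-type cells, 6 after thinning to 2000 UMIs, 4 with the mean over cells of each cell's CPM, 19 with a minimum of 20 CPM and 30 with no minimum. The 8 lower genes became 15 with at most 5% mitochondrial UMIs, 28 in female-type cells, 13 with a minimum of 20 CPM and 18 with no minimum. The Foxo1 log2 ratio of −1.50 became −1.84 with at most 5% mitochondrial UMIs, −2.02 in general capillary-like, −2.14 in aerocyte-like, −2.41 in female-type and −0.72 in male-type cells.

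The G2 and M phase median turned to 0.0203 in female-type cells, and the S phase median to 0.0568 in female-type and 0.0097 in general capillary-like cells. Igfbp3 turned to −0.12 in aerocyte-like cells, and Col3a1 to −0.32 in general capillary-like, −0.33 in aerocyte-like and −0.037 in female-type cells. Of the list medians over all alternatives 469 stayed, 23 moved and 3 turned, and of the named gene values 107 stayed, 15 moved and 4 turned. The causes were not tested. The animals behind each library, and so the spread between them, are unknown, and sex typing rests on a few transcripts that shallow cells miss.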

Other observations

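In male-type cells the class I genes H2-Q7 and H2-T23 stood higher and in female-type cells lower in Foxo1cKO PNX, with H2-Q7 at 320 and 613 CPM in male-type and 460 and 303 in female-type cells. Aerocyte-like cells were 12.9% of WT PNX and 19.3% of Foxo1cKO PNX female-type cells, and general capillary-like cells 42.5% and 33.7%. In male-type cells the aerocyte-like shares were 17.4% and 18.6%, and the general capillary-like shares 27.9% and 29.3%. The shares of the whole libraries did not show this female-type difference, which rests on 1 library per group.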
